A study of Homo sapiens with 5 samples.

Results

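Full-length α2 was carried by the cells of 2 of the 5 arrays, MP2-α2/TC and MP2-α2/CI, and the transcripts described here are those that set both apart from MP2-mock, MP2-α2Δ and MP2-α9α2 cells together. A probe set was taken when its lowest value on one side exceeded its highest value on the other side by at least 1 on the log2 scale, a 2-fold difference, and this difference is called the gap. Of 54613 probe sets, 33 met this limit. On both full-length α2 arrays, 18 of them read higher and 15 read lower than on the other 3. The 18 stand for 10 named genes, with NR5A2, EPAS1, IQGAP2, NEDD4L and ROR1 at the widest gaps, and for a pair of probe sets that the platform annotation gives several symbols. The 15 stand for 12 genes, with LIPG, CDK6, CHI3L2, SLC39A8 and HKDC1 at the widest gaps. Among the 32745 probe sets above background on at least 1 array, the shares were 0.055% for higher and 0.0458% for lower. The values themselves chose these probe sets, so that their levels are a description and no p is given as support for any of them.

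MIAPaCa2 is an established line of poorly differentiated human PDAC that lacks α2, and the study asked which transcripts follow re-expression of this integrin and which part of the molecule they depend on. MP2-mock cells carried the empty vector and were kept under drug selection. The MP2-α2/TC and MP2-α2/CI populations carried the whole α2 subunit, driven by a cytomegalovirus promoter and selected with zeocin, the former grown on uncoated tissue culture plastic and the latter on collagenI. MP2-α2Δ cells carried α2 without its cytoplasmic domain, also under zeocin, and were kept on collagenI. The labels give a collagenI coating of 25 μg/mL for both MP2-α2/CI and MP2-α2Δ. MP2-α9α2 cells carried the α9 ectodomain and transmembrane domain joined to the α2 cytoplasmic domain, were selected with G418, and were kept on the tenascin FNIII fragment at 10 μg/mL. All were stable populations of transfected cells and not single clones, and MP2-α2/TC and MP2-α2/CI came from 1 original panning. There was 1 array per population, so no difference has a replicate error and the number of arrays limits the precision. Construct, substrate and drug differed together on the side of the other 3 arrays and cannot be told apart.

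The α2 subunit pairs with β1 to form α2β1, a receptor through which epithelial cells bind collagens. Its ectodomain holds the collagen-binding site, and its short cytoplasmic tail connects to proteins inside the cell. The comparison sets cells that had the whole molecule, on either substrate, against cells with no α2, with α2 lacking the tail, and with the tail on another ectodomain.

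Values are the normalized ones that the authors deposited, taken here as log2 from their range. The minimum was 2.21 for MP2-α2Δ and MP2-α9α2 and 2.24 for the other 3 populations, from which 2 normalization sets were inferred, MP2-mock forming the first with both full-length α2 arrays. Background, called the floor, was set at the 95th percentile of the 107 probe sets of odorant receptors and lay between 2.21 and 2.27. Over probe sets that exceeded it on every array, medians were 6.88 to 6.89 in the first set and 7.69 to 7.72 in the second. Each gap was therefore computed again after quantile normalization over the 5 arrays. Of the duct markers KRT19, SOX9 and MUC1 read above 6 on at least 1 array, while CFTR, CA2 and TFF1 lay at the floor on all 5. The fibroblast genes COL1A1, COL1A2 and ACTA2 also read above 6 on at least 1 array, and DCN, LUM, FAP and COL3A1 lay at the floor on all 5. Of 5 acinar markers on the array, 1 was above the floor on each array, and CPA1, CPB1, PNLIP and CELA3A lay at the floor on all 5. Of 7 blood cell markers 2 to 3, and of 6 endothelial markers 3 to 4, were above the floor on each array, with PTPRC, LYZ, HBB, CD3E, VWF and KDR at the floor on all 5, and none of these lists had a gene above 6. None of the marker genes measured passed the limit of 1 in either direction. ITGA2, the gene of α2 itself, gives no check that the constructs were expressed, since the study states that its probes lie outside the transgene. Its probe set 227314_at read 2.24 on both full-length α2 arrays and in MP2-mock cells, 7.28 in MP2-α2Δ and 2.21 in MP2-α9α2. Another, 205032_at, read 3.28 in MP2-α2Δ and lay at the minimum on the other 4, and ITGA1, of the collagen-binding α1 subunit, read 6.60 in MP2-α2Δ and the minimum elsewhere (226731_at). Whether MP2-α2Δ cells also made α2 from their own ITGA2 gene was not tested. Without the MP2-α2Δ array, 23 probe sets would be higher and 16 lower.

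**Figure D1:**
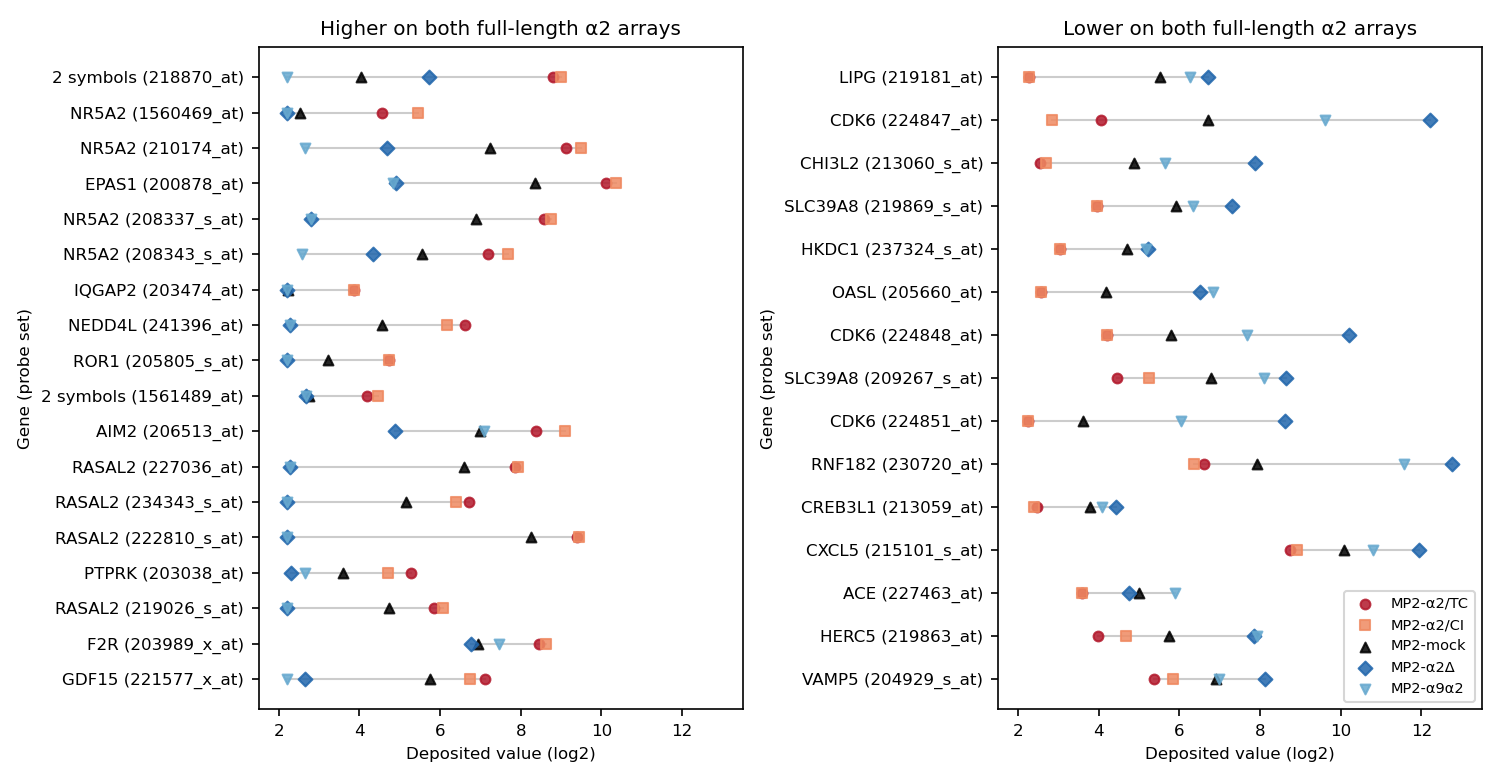
Deposited log2 values (x axis) of the 18 probe sets higher (left) and the 15 lower (right) on both full-length α2 arrays, 1 row per probe set and 1 point per array, with overlapping points where arrays had equal values. In 15 of the 18 higher and 14 of the 15 lower probe sets MP2-mock (black triangles) lies between the full-length α2 arrays and both other constructs.

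Transcription factors held the widest gaps of the named genes on the higher side. NR5A2, a nuclear receptor of the liver and exocrine pancreas, was the only gene with more than 1 probe set of which all passed, 4 of 4. By 210174_at, it read 9.13 in MP2-α2/TC, 9.50 in MP2-α2/CI, 7.24 in MP2-mock, 4.68 in MP2-α2Δ and 2.66 in MP2-α9α2. By 208337_s_at, it read 8.58 and 8.76 on the full-length α2 arrays, 6.89 in MP2-mock and 2.80 on both others. The order was the same in these probe sets, with MP2-mock in the middle and both other constructs well below it. Probe set 1560469_at ran lower throughout, at 4.55, 5.44, 2.53, 2.21 and 2.21 in the order MP2-α2/TC, MP2-α2/CI, MP2-mock, MP2-α2Δ and MP2-α9α2. The remaining one, 208343_s_at, read 7.18, 7.68, 5.54, 4.33 and 2.58 in that order. The gaps of the 4 were 1.64 to 2.02 on deposited values and 1.62 to 2.31 after quantile normalization. EPAS1, the hypoxia-inducible factor HIF-2α, read 10.12 in MP2-α2/TC, 10.37 in MP2-α2/CI, 8.35 in MP2-mock, 4.90 in MP2-α2Δ and 4.84 in MP2-α9α2 (200878_at). In populations measured in bulk, fewer expressing cells and less RNA per cell cannot be told apart. The gap of EPAS1 was 1.77, a 3.41-fold difference, and 1.70 after quantile normalization. A second EPAS1 probe set, 200879_s_at, read 3.53 on all 3 arrays of the first set and 2.41 on both others, so that it separated the normalization sets and not the full-length α2 arrays.

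RefSeq (GRCh38.p14) gave promoter windows from 250 bases before to 50 after a transcription start for 20 of the 22 named genes, all but F2R and OASL, in 35 windows. NR5A2 had a pair of them, printed here since all of its probe sets passed. Capitals mark a match to TGANTCA, the AP-1 site, in the first and to GAAANNGAAA, the core of the interferon-stimulated response element, in the second, where N is any base and both strands were searched.
NR5A2, chr1:200027460-200027759, plus strand: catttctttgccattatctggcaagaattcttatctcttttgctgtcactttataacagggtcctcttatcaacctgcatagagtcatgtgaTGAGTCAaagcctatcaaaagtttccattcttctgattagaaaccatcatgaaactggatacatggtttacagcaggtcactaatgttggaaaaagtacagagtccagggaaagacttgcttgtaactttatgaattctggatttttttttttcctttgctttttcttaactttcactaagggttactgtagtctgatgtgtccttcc
NR5A2, chr1:200042341-200042640, plus strand: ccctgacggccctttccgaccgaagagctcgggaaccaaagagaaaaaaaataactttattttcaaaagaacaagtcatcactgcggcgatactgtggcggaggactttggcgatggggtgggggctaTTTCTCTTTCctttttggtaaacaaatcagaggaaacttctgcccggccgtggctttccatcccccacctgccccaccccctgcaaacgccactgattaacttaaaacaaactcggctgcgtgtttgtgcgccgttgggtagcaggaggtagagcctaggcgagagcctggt
The AP-1 match began at position -158 from the start and that of the response element, read on the opposite strand, at -122. AP-1 matches were present in 7.71% of all 35116 windows and in windows of AIM2, NEDD4L and NR5A2 among the genes described. A match is a description of the letters and not a site. The letters CAAGGTCA, to which NR5A receptors bind, occurred in 1.28% of all windows and in 0 of the 35.

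Regulators of small GTPases and receptors for signals formed the next group of higher genes. RASAL2 encodes a GTPase-activating protein that switches RAS off, and 4 of its 8 probe sets passed. By the brightest, 222810_s_at, it read 9.39 in MP2-α2/TC, 9.44 in MP2-α2/CI and 8.26 in MP2-mock cells, and it lay at the minimum of 2.21 in the other constructs. The other three, 227036_at, 234343_s_at and 219026_s_at, read 5.85 to 7.93 on the full-length α2 arrays, 4.74 to 6.59 in MP2-mock and 2.21 to 2.27 in the other two populations. RASAL2 was thus measured well above the floor in MP2-mock and was at or near it on both arrays of the second set, and its gaps of 1.10 to 1.25 are those to MP2-mock. The remaining 4 RASAL2 probe sets read 2.24 on all arrays of the first set and 2.21 to 2.22 on the others. IQGAP2, a scaffold protein that binds RAC1 and CDC42, read 3.87 on both full-length α2 arrays, 2.24 in MP2-mock and 2.21 on the others (203474_at). It was above the floor on the full-length α2 arrays and on none of the others, although at a low level. ROR1, a receptor kinase for WNT5A, read 4.74 in both populations with full-length α2, 3.22 in MP2-mock and 2.21 on the others (205805_s_at). Both other ROR1 probe sets were separated in the same direction, with gaps of 0.73 and 0.82. PTPRK, a receptor tyrosine phosphatase at cell contacts, read 5.28 in MP2-α2/TC, 4.71 in MP2-α2/CI, 3.59 in MP2-mock, 2.30 in MP2-α2Δ and 2.66 in MP2-α9α2. F2R, the thrombin receptor PAR1, read 8.46, 8.62, 6.93, 6.76 and 7.45 in the same order, with a gap of 1.01. In contrast to most of the genes, F2R was strongly measured on all 5 arrays and, on deposited values, MP2-α9α2 lay nearest to the full-length side. A second F2R probe set, 1569642_at, read 4.99 on all 3 arrays of the first set and 2.21 on the others.

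**Figure D2:**
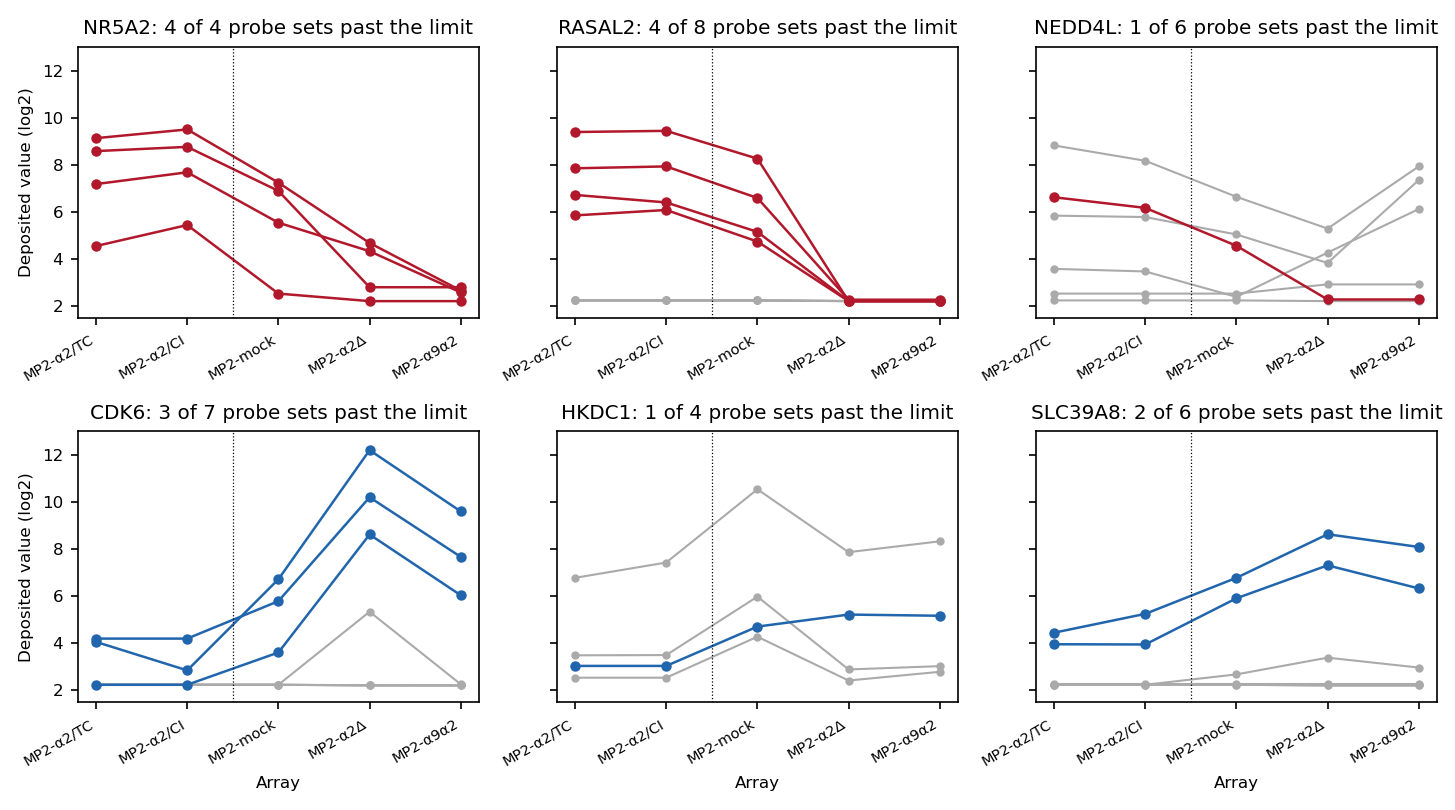
Deposited log2 values (y axis) on the 5 arrays (x axis) of every probe set of 6 genes, with lines joining the values of 1 probe set, coloured where the probe set passed the limit and grey where it did not; the dotted line parts the full-length α2 arrays from the others. All 4 probe sets of NR5A2 and 4 of 8 of RASAL2 passed, and the grey lines of NEDD4L and HKDC1 show other orders of the arrays.

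NEDD4L, AIM2 and GDF15 completed the named genes on the higher side. NEDD4L, a ubiquitin ligase of membrane proteins, passed by 1 of 6 probe sets. This one, 241396_at, read 6.62 in MP2-α2/TC, 6.17 in MP2-α2/CI, 4.56 in MP2-mock and 2.28 on both others. The 4 other NEDD4L probe sets above the floor did not share this order. The brightest, 212445_s_at, read 8.82, 8.17 and 6.64 in MP2-α2/TC, MP2-α2/CI and MP2-mock, 5.29 in MP2-α2Δ and 7.93 in MP2-α9α2, a gap of 0.23. By 212448_at, MP2-α9α2 cells read the highest value, 7.35, against 5.84 and 5.78 on the full-length α2 arrays. AIM2, a sensor of cytosolic DNA that interferon induces, has 1 probe set, which read 8.38 in MP2-α2/TC, 9.09 in MP2-α2/CI, 6.98 in MP2-mock, 4.89 in MP2-α2Δ and 7.08 in MP2-α9α2. GDF15, a secreted factor of the TGFβ family induced by stress, read 7.10, 6.74, 5.74, 2.66 and 2.21 in the same order. Its gap of 1.0 was the narrowest of the 18 and was 0.97 after quantile normalization, under the limit. The widest gap of the higher side belonged to 218870_at, a probe set with more than 1 symbol, which read 8.79 in MP2-α2/TC, 9.0 in MP2-α2/CI, 4.05 in MP2-mock, 5.72 in MP2-α2Δ and 2.21 in MP2-α9α2. Its gap was 3.06, or 8.36-fold, and 3.89 after quantile normalization. Probe set 1561489_at, with the same symbols, had a gap of 1.44.

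LIPG, SLC39A8 and HKDC1 act in metabolism and transport and were among the lower genes. LIPG, the endothelial lipase that cleaves lipoprotein phospholipids, read 2.28 on both full-length α2 arrays, 5.53 in MP2-mock, 6.71 in MP2-α2Δ and 6.26 in MP2-α9α2 (219181_at). With a gap of 3.26, a 9.55-fold difference, it was the most widely separated of the 33 probe sets on deposited values. After quantile normalization its gap was 3.51, below the 3.89 of 218870_at. The 2.28 of the full-length α2 arrays lies next to their floors of 2.25 and 2.27, where differences are compressed. SLC39A8, a zinc importer, passed by 2 of 6 probe sets. By 209267_s_at, it read 4.45 in MP2-α2/TC, 5.25 in MP2-α2/CI, 6.78 in MP2-mock, 8.63 in MP2-α2Δ and 8.09 in MP2-α9α2. Its other passing probe set, 219869_s_at, read 3.96, 3.95, 5.91, 7.31 and 6.33 in that order, and a weak one, 216504_s_at, was separated in the same direction by 0.44. HKDC1, a hexokinase of glucose phosphorylation, passed by 237324_s_at at 3.04 on both full-length α2 arrays, 4.71 in MP2-mock, 5.22 in MP2-α2Δ and 5.17 in MP2-α9α2. Its other 3 probe sets gave another order, with MP2-mock well above the rest. The brightest, 227614_at, read 6.78 in MP2-α2/TC, 7.43 in MP2-α2/CI, 10.54 in MP2-mock, 7.87 in MP2-α2Δ and 8.33 in MP2-α9α2. Its gap of 0.45 did not hold after quantile normalization (-0.37). MP2-α2Δ lay below the full-length α2 arrays by 220585_at, at 2.89 against 3.49 and 3.50, and by 237323_at, at 2.42 against 2.54.

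CDK6, a cyclin-dependent kinase that drives entry into S phase, passed by 3 of 7 probe sets. By 224847_at, it read 4.06 in MP2-α2/TC, 2.85 in MP2-α2/CI, 6.72 in MP2-mock, 12.20 in MP2-α2Δ and 9.60 in MP2-α9α2. Probe set 224848_at read 4.20 on both full-length α2 arrays, then 5.79, 10.20 and 7.67, and 224851_at read 2.24 on both, then 3.61, 8.62 and 6.04. The order was the same in all 3, with MP2-α2Δ highest and MP2-mock nearest to the full-length α2 arrays. Of the other 4 CDK6 probe sets 3 were above the floor on some array, and none of the 4 was separated. One of them, 243000_at, read 2.24 on all arrays of the first set, 5.34 in MP2-α2Δ and 2.26 in MP2-α9α2.

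Secreted proteins and products that interferon induces were also among the lower genes. CHI3L2, a secreted chitinase-like protein, read 2.55 in MP2-α2/TC, 2.69 in MP2-α2/CI, 4.88 in MP2-mock, 7.88 in MP2-α2Δ and 5.65 in MP2-α9α2. CXCL5, a chemokine for neutrophils, read 8.73, 8.91, 10.07, 11.93 and 10.79 in that order (215101_s_at), and both other CXCL5 probe sets were separated in the same direction, by 0.64 and 0.02. It was one of the 8 lower probe sets that read more than 1 above the floor on all 5 arrays. OASL, an antiviral protein related to the oligoadenylate synthetases, read 2.58 on both full-length α2 arrays, 4.18 in MP2-mock, 6.51 in MP2-α2Δ and 6.83 in MP2-α9α2. Its second probe set, 210797_s_at, was separated in the same direction by 0.59, and both had MP2-mock nearest to the full-length α2 arrays. HERC5, the ligase that attaches ISG15 to new proteins, read 3.98 in MP2-α2/TC, 4.67 in MP2-α2/CI, 5.74 in MP2-mock, 7.84 in MP2-α2Δ and 7.92 in MP2-α9α2. OASL and HERC5 thus ran opposite to AIM2, which was higher on the full-length α2 arrays. The promoters of HERC5 and AIM2 are printed with matches to GAAANNGAAA, or its reverse complement, in capitals, and in AIM2 also with the match to TGANTCA.
HERC5, chr4:88456869-88457168, plus strand: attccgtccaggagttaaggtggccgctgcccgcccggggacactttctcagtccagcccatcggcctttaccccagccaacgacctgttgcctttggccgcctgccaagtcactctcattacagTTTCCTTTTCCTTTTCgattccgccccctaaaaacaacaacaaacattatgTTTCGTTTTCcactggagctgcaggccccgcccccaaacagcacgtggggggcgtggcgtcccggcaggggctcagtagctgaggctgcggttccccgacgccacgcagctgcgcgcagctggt
AIM2, chr1:159076717-159077016, minus strand: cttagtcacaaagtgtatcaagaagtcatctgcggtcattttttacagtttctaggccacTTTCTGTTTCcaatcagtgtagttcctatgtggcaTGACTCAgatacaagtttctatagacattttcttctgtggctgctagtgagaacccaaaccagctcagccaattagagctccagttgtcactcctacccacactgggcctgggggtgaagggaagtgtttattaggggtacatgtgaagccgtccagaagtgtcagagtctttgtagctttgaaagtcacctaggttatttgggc
HERC5 had 3 matches to GAAANNGAAA, beginning at -125, -119 and -74 from the start, the first 2 of which overlap. AIM2 had 1, at -190, and its AP-1 match began at -155. The letters GAAANNGAAA were present in 3.57% of all windows and in 3 of the 35 of the genes described, those of HERC5, AIM2 and NR5A2. Genes on both sides of the comparison therefore carried it, HERC5 lower and AIM2 and NR5A2 higher. The other letters searched were ACGTG, the hypoxia response core, in 8 of the 35 windows and 21.4% of all, GGGNNNTCC, an NF-κB site, in 8 and 21.0%, TGACGTCA, the cAMP response element, in 0 and 1.85%, and TATAAA in 4 and 11.5%. The windows with ACGTG were those of CDK6, HERC5, NEDD4L and SLC39A8.

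RNF182, a ubiquitin ligase, read 6.60 in MP2-α2/TC, 6.36 in MP2-α2/CI, 7.93 in MP2-mock, 12.75 in MP2-α2Δ and 11.57 in MP2-α9α2. MP2-mock lay close to the full-length side and far below the other constructs. CREB3L1, a transcription factor of the endoplasmic reticulum that acts on collagen genes, read 2.46, 2.40, 3.79, 4.42 and 4.09 in that order. Its gap of 1.32 was also 1.32 after quantile normalization and 0.82 after centring each array on its median. VAMP5, a membrane fusion protein, read 5.38 in MP2-α2/TC, 5.85 in MP2-α2/CI, 6.91 in MP2-mock, 8.11 in MP2-α2Δ and 6.98 in MP2-α9α2. ACE, the angiotensin-converting enzyme, read 3.59 on both full-length α2 arrays, 4.99 in MP2-mock, 4.74 in MP2-α2Δ and 5.89 in MP2-α9α2. On deposited values it was the only lower gene for which MP2-α2Δ and not MP2-mock lay nearest. VAMP5 and ACE lost most of their gap after quantile normalization, from 1.06 to 0.32 and from 1.15 to 0.50.

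After quantile normalization 17 of the 18 higher and 13 of the 15 lower probe sets kept a gap of at least 1, and the 3 that did not were GDF15, VAMP5 and ACE. A further 7 probe sets passed only then, all of them higher. DUSP6, a phosphatase of ERK, read 7.03 in MP2-α2/TC, 7.48 in MP2-α2/CI, 5.61 in MP2-mock, 2.63 in MP2-α2Δ and 6.37 in MP2-α9α2 on deposited values (208893_s_at), and its gap went from 0.66 to 1.40. A brighter DUSP6 probe set, 208891_at, read 7.34, 7.90, 5.72, 3.95 and 8.55 in that order, with MP2-α9α2 above the full-length α2 arrays. Whether DUSP6 separated the sides therefore depended on the probe set. PTX3, a secreted pattern recognition protein of matrix, read 10.38, 10.80, 7.76, 9.79 and 4.75, and its gap went from 0.59 to 1.25. HAS3, a hyaluronan synthase, went from 0.32 to 1.13, and DDR2, a receptor kinase for fibrillar collagens, from 0.29 to 1.02. For DDR2, MP2-α9α2 cells at 9.0 lay close to the 9.29 and 9.45 of the full-length α2 arrays on deposited values. ATP8B1, DIPK2A and IL1R2 were the other three. ATP8B1 was also the higher probe set nearest to the limit on deposited values, at 0.91, followed by CORO2B and FSCN1 at 0.89 and GINS4 at 0.86. On the lower side EHF lay just outside at 0.99, then 210538_s_at, which has no symbol, at 0.98, and THBS3 and PRRG4 at 0.90. Just inside were GDF15 at 1.0 and F2R at 1.01 on the higher side, and VAMP5 at 1.06 and HERC5 at 1.07 on the lower.

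**Figure D3:**
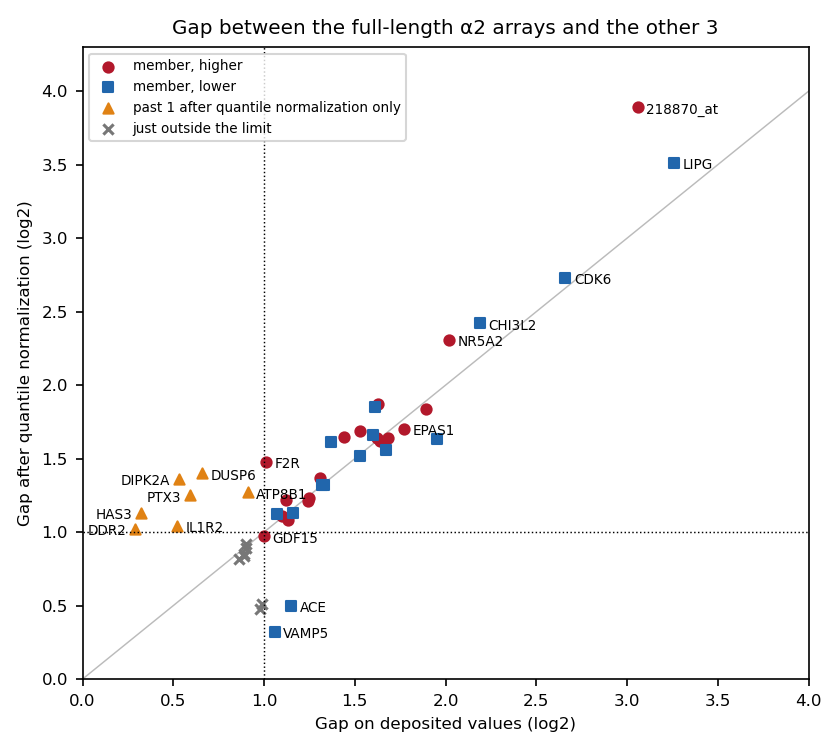
Gap between the full-length α2 arrays and the other 3 on deposited values (x axis, log2) and after quantile normalization (y axis, log2), 1 point per probe set, with dotted lines at the limit of 1 and a grey line where both are equal. The points of GDF15, ACE and VAMP5 lie to the right of the limit and below it, and 7 triangles lie to its left and above it.

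MP2-mock decided most of the gaps. It was the array nearest to the full-length side for 15 of the 18 higher and 14 of the 15 lower probe sets. For 11 of the higher and 7 of the lower ones, MP2-mock in turn lay at least 1 beyond both other constructs. This step from MP2-mock to the other constructs runs between the normalization sets and cannot be told apart from them. Between the sets, 1585 probe sets read at least 1 higher on every array of the first set than on every array of the second, and 7637 read lower. After quantile normalization these counts were 3480 and 3424. Within the first set, 42 probe sets were at least 1 higher on both full-length α2 arrays than in MP2-mock, and 18 of them, 42.9%, passed against both other constructs too. A further 8 passed against MP2-α2Δ alone, 5 against MP2-α9α2 alone and 11 against neither. Of 54 probe sets lower on both full-length α2 arrays than in MP2-mock cells, 15, or 27.8%, passed against both constructs, 15 against MP2-α2Δ alone, 1 against MP2-α9α2 alone and 23 against neither.

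**Figure D4:**
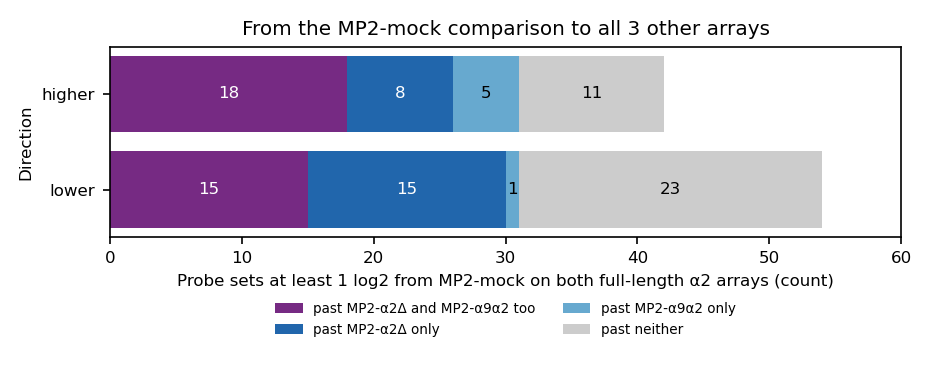
Counts (x axis) of probe sets at least 1 on the log2 scale from MP2-mock on both full-length α2 arrays, higher and lower (y axis), divided by whether they also passed the limit against MP2-α2Δ and MP2-α9α2. The 18 and 15 at the left passed against all 3 other arrays, and 11 and 23 at the right passed against MP2-mock alone.

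Within the sides, the pairs of arrays of 1 normalization set were compared, which the limit did not use. MP2-α2/CI minus MP2-α2/TC ranged from -0.57 to 0.89 in the higher probe sets, with a median of 0.17 and a median size of 0.26, and MP2-α2/CI was the higher of the pair in 12 of 18. In the lower probe sets it ranged from -1.21 to 0.80, and the lowest value was that of CDK6 by 224847_at. Values of the pair were identical within 1e-06 in 2 higher and 6 lower probe sets, as they were in 56% of the 32745 probe sets, where the median size was 0. MP2-α2Δ minus MP2-α9α2 ranged from -2.18 to 3.52 in the higher probe sets, 9 of which were identical, so that the median size was 0. Among the lower ones it ranged from -1.15 to 2.59 with a median of 0.98 and a median size of 1.12, against 0.06 for the full-length pair, and 7 of the 15 read at least 1 higher in MP2-α2Δ cells. CDK6 by 224847_at was the widest of these, at 12.20 against 9.60. Over the 32745 probe sets the median size was 0.18 for this pair, 33.5% were identical and 2343 read at least 1 higher in MP2-α2Δ cells. MP2-α2/CI was the higher of its pair in 7838 of the 32745. The lower probe sets were chosen for low values on the full-length α2 arrays. Some lay near the floor there, where differences are compressed, as LIPG, OASL and CDK6 by 224851_at did.

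The genes described have 35 other probe sets, of which 23 were above the floor on at least 1 array. Of these, 8 were separated in the same direction by any gap, and 0 in the opposite direction. They were probe sets of ROR1, NEDD4L, SLC39A8, HKDC1, OASL and CXCL5. One CXCL5 gap was 0.02, and the HKDC1 gap of 0.45 was -0.37 after quantile normalization. These 8 were counted per probe set on deposited values raised to the floor. Per gene, by 1 probe set each, 13.7% of all genes were higher and 11.1% lower by any gap. Those shares are of values quantile normalized and raised to the floor, so they are no like base for the 8. One gene on the higher side, AIM2, and 4 on the lower side, LIPG, CHI3L2, RNF182 and HERC5, have a single probe set and so no second measurement.

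In a limma fit of both full-length α2 arrays against the other 3 over 32036 probe sets, the spread is that between different populations, so that its p-values do not measure replicate error, and it used the same contrast as the limit. The probe set of IQGAP2, chosen by this contrast, had identical full-length α2 values and lay at the floor elsewhere, which leaves almost no spread. At an adjusted p under 0.05 the fit called it alone, a count of 1 or 0.00312%, which is no support for it. The count was 0 without the filter on low values, without the intensity trend or without any 1 array other than MP2-mock, 20801 without MP2-mock, and 446 with the normalization set as a block. At an unadjusted p under 0.05 it called 146, 0.456%, with 54 higher and 92 lower.

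In 32 lists of genes of pathways and families, 460 genes were measured, each by its probe set with the highest mean. Of these, 6 passed the limit higher and 2 lower, and 23 of the lists held none. Over all 13540 genes, 9 (0.0665%) passed higher and 10 (0.0739%) lower. The lists were chosen with results of these arrays known, so that nothing particular to them is read from these counts. The 6 were RASAL2 among 14 genes of the RAS and RAL pathway, EPAS1 among 16 hypoxia factors and targets, NR5A2 among 15 nuclear receptors and 10 pancreatic lineage factors, ROR1 among 18 receptor tyrosine kinases, PTPRK among 16 protein tyrosine phosphatases, and GDF15 among 11 genes of drug and vector response. Lower were CDK6 among 15 genes of the G1 switch and LIPG among 12 of lipases and lipid synthesis. None passed among 9 collagen and tenascin binding integrins, 16 matrix proteins, 22 pericellular proteases and inhibitors, 20 ERK output genes or 18 interferon-stimulated genes, a list that does not hold OASL, HERC5 or AIM2. After quantile normalization 2 matrix proteins, PTX3 and HAS3, passed, and GDF15 no longer did.

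Below the limit, some list genes were separated by a smaller gap. After quantile normalization, with lower values raised to the floor, 13.7% of all genes were higher and 11.1% lower on both full-length α2 arrays by any gap. Among the pancreatic lineage factors 4 of 10 were higher, among the phosphatases 4 of 16, and among the ERK output genes 2 of 20. Of 17 proliferation genes 4 were lower, and of 18 interferon-stimulated genes 3 were lower and 0 higher. These counts are small and genes near the floor enter them. Before values were raised to the floor, NR5A2, itself past the limit, was the only lineage factor whose gap rounded to more than 0. Among the phosphatases only PTPRK, also past the limit, and PTPRS, at 0.10, did so. Gaps of the 3 interferon-stimulated genes were 0.01 to 0.07. Of genes measured well, CDKN1A, the inhibitor p21 of cyclin-dependent kinases, read 8.14 in MP2-α2/TC, 7.95 in MP2-α2/CI, 7.44 in MP2-mock, 7.44 in MP2-α2Δ and 6.28 in MP2-α9α2. SFRP1, a secreted WNT antagonist, read 11.98, 12.08, 11.32, 5.86 and 8.53 in that order. PLAU, the urokinase that activates plasminogen, was lower, at 9.92, 9.82, 10.46, 12.21 and 12.21. PLAU, SFRP1 and CDKN1A thus had the sides apart by less than the limit, and they were chosen after their values were seen.

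The kallikrein-related peptidases of the study were not set apart in this comparison, which counts MP2-α2Δ among the other 3 arrays. For KLK5 the highest value of the 5 was that of MP2-α2Δ, 10.37. The full-length α2 arrays read 4.90 (TC) and 2.44 (CI), against 2.41 for MP2-mock and 2.71 for MP2-α9α2. KLK6 was also highest on the MP2-α2Δ array, at 12.28. With full-length α2 it read 10.08 (TC) and 6.79 (CI), against 3.36 for MP2-mock and 2.68 for MP2-α9α2. KLK6 thus lay above MP2-mock by 6.72 and 3.43. Its gap was -5.49, and 3.43 without the MP2-α2Δ array, so that this array alone kept KLK6 from passing as higher. KLK7 overlapped between the sides by both of its probe sets. All 4 probe sets of ITGA9, the gene of the α9 subunit, lay at the minimum on all 5 arrays.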

How the data were processed

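The 5 Affymetrix arrays held 1 population of MIAPaCa2 cells each. The values, as deposited by the authors, are normalized and on a log2 scale. GCRMA and MAS5 are listed in the submitters' processing notes, with neither version nor role, and the log base and the normalization sets were inferred from the range and the minimum of the values. Of 54675 probe sets, 62 controls were left out. The platform annotation gave 1 symbol for 41091, several for 1801 and none for 11721, and only a single symbol was used as a name, with 41037 brought up to date through RefSeq gene identifiers. The members, the gene lists, the markers and the tests were chosen with earlier results of these data known.

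Gaps were computed on deposited values, with no floor applied, in Python 3.11.15 with numpy 2.4.6 and pandas 2.3.3, and again after quantile normalization over the 5 arrays. Limma 3.58.1 in R 4.3.3 was fitted with an intensity trend and Benjamini-Hochberg adjustment to the 32036 probe sets that exceeded the floor on 2 or more arrays, with 3 residual degrees of freedom. The scripts were tested on simulated data. Genes named are the 15 with the widest gap in each direction, those in a list, the genes of the study and probe sets next to the limit. CDKN1A, SFRP1, PLAU, DUSP6 and the other genes that passed only after quantile normalization were named after their values were seen. Promoter windows were read from RefSeq, GRCh38.p14, in the direction of transcription. Alternatives were centring, floors, other limits, fewer probe sets or arrays, and other settings of limma.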

Additional observations from a re-analysis of the deposited data

How the results depend on the processing

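The counts of 18 higher and 15 lower probe sets were 24 and 13 after quantile normalization and 24 and 12 after centring each array on its median. They were 39 and 41 at 1.5-fold, 8 and 7 at 3-fold, 10 and 9 without the _x_at and _s_at probe sets, and 42 and 54 within the first normalization set alone. With values below 4 raised to 4, 13 and 9 remained in the counts. Leaving out each array in turn, which can only keep or raise these counts, gave 22 to 1617 higher and 16 to 7780 lower probe sets. Both maxima came without MP2-mock, when the comparison becomes that of the normalization sets, and the lower count was 25 without MP2-α2/CI and 30 without MP2-α9α2.

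The limma count of 1 at an adjusted p under 0.05 was 0 without the filter on low values, 0 without the intensity trend and 446 with the set as a fixed block, and 0 to 20801 with each array left out, the maximum again without MP2-mock. At an unadjusted p under 0.05 the count of 146 was 236 without the filter, 236 without the trend, 1238 with the block and 49 to 22079 with each array left out, with 22079 without MP2-mock, 49 without MP2-α2/CI, 56 without MP2-α2/TC and 84 without MP2-α2Δ. With the probe set of the widest gap standing for each gene, 4 list genes were lower in place of 2. The cause of these changes was not tested.

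For the 22 named genes, each by its widest gap, quantile normalization, centring, the floor and leaving out an array were applied. Of the gaps, 169 stayed at or above the limit, 7 moved below it and none changed direction. Leaving out an array can only keep or widen such a gap, so those checks could not fail. All 7 came under quantile normalization or centring. GDF15 fell to 0.97 after quantile normalization and 0.99 after centring, CREB3L1 to 0.82 after centring, ACE to 0.50 and 0.31, and VAMP5 to 0.32 and 0.34. With values below 4 raised to 4, a setting added for single genes after the data were seen, 9 of the 22 fell below 1. IQGAP2 and CREB3L1 went to 0, ROR1 and ACE to 0.74, PTPRK and HKDC1 to 0.71, CHI3L2 to 0.88 and OASL to 0.18. NR5A2 went to 0.55 by 1560469_at, its widest, while its other probe sets kept gaps of 1.64 to 1.89. No paired analysis was possible because there was 1 array per population. Low signal limits genes such as IQGAP2, LIPG and OASL, which lay near the floor on 1 side.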
